A study of Mus musculus with 22 samples.

Results

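The 9 genes described here make, or receive the signal of, prostaglandins in the lumbar spinal cord of mice with knee joint pain. They are Pla2g4a, Ptgs1, Ptgs2, Ptges, Ptges2, Ptgds, Ptgis, Ptger3 and Ptger4, and were taken by gene symbol from the 17306 genes of the table. All 9 passed the filter on low values, as did 16765 genes in all. Every mouse was a C57BL6J wild-type, aged 12 to 14 weeks at collection, and had 1 mg of monoiodoacetate (MIA) in the knee joint. The mice of this experiment were male by a supplementary figure legend of the paper, whose methods name both sexes for the study. MIA blocks glycolysis and damages the cartilage, and no group without it was sequenced. SAFit2 inhibits FKBP51, a co-chaperone of the glucocorticoid receptor. It was given at 100 mg/kg in a vesicular phospholipid gel that releases it slowly, and Vehicle mice received the gel alone. The Early groups (5 SAFit2, 6 Vehicle) had the gel on days -3 and 4 by the methods, while the label gives days 3 and 4 after MIA, and the Late groups (5 SAFit2, 6 Vehicle) had it on days 20 and 27. Tissue was collected on day 30 from the L4 to L6 cord, of which the methods name the quadrants on the injured side. Early and Late are also given as separate batches, so that timing and batch cannot be told apart. SAFit1 stands in the titles of 5 samples whose treatment label is SAFit2, and the treatment label was used.

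Prostaglandins are lipid signals made on demand. Cytosolic phospholipase A2 (Pla2g4a) frees arachidonic acid from membranes, the cyclooxygenases (Ptgs1 and Ptgs2) turn it into prostaglandin H2, and terminal synthases make prostaglandin E2 (Ptges, Ptges2), D2 (Ptgds) or prostacyclin (Ptgis) from it. Prostaglandin E2 acts through 4 receptors, of which EP3 (Ptger3) lowers and EP4 (Ptger4) raises cyclic AMP. In the dorsal horn this pathway is known for its part in inflammatory pain, and cyclooxygenases are the targets of common analgesics. Glucocorticoids are known to hold back several of these genes, which is the link to a drug that acts on a partner of their receptor.

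None of the 9 genes passed the threshold in any comparison. Under late SAFit2, Pla2g4a was 0.51 higher and Ptges2 0.49 lower on the log2 scale, and neither held an adjusted p under 0.05. Ptgds was by far the most abundant of them, at 521 CPM per kb of transcript on average over the 22 mice, and Ptgs2, the inducible cyclooxygenase, was among the scarcest at 0.440 CPM per kb. Ptgs2 and Ptger3 also varied most from mouse to mouse, with standard deviations within groups of 0.89 and 0.79 on the log2 CPM scale. In a bulk sample of tissue, fewer cells of a type and less RNA per cell cannot be told apart.

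The libraries held between 11352989 and 24433349 reads on genes. Late SAFit2 libraries differed from late Vehicle libraries in composition. Mitochondrial genes took 12.7 to 14.9% of their reads, against 6.82 to 13.9% in late Vehicle (exact permutation p = 0.013), and their values leaned toward genes of low GC content, with a mean slope of -0.30 ± 0.16 (SD, n = 5) log2 per 10 percentage points of GC against 0.17 ± 0.33 (SD, n = 6) (exact permutation p = 0.028). Values after removal of each library's trend on GC content and length are therefore given beside the results. Of all genes tested, 2021 passed the late threshold (an adjusted p under 0.05 by limma and a fold change of at least 1.2). After GC correction 0 did. Only 1 did when Late SAFit2 replicate 2 or 5, or Late Vehicle replicate 1, 3, 4 or 5, was left out. Without Late SAFit2 replicate 4, 8 did, and without any other single library between 1189 and 4971 did. Marker genes of spinal neurons (8 genes), oligodendrocytes (8) and astrocytes (8) were present in every library, with summed levels of 3452 to 5080, 14873 to 32681 and 4596 to 7731 CPM.

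Late SAFit2 replicate 2 stood apart for tissue around the cord. The 4 nerve and ganglion genes measured summed to 0.739 CPM in it and to between 315 and 2689 CPM in the other 21 libraries. Its 12 leptomeningeal fibroblast markers summed to 65.9 CPM, against 149 to 1062 CPM in the others. Late SAFit2 replicate 5 was at the opposite end, with the highest sum of meningeal markers (1062 CPM) and of those nerve and ganglion genes (2689 CPM), and with 16.5% of its reads on the noncoding RNA Bc1. It shared with Late SAFit2 replicate 3 a high sum of 6 skeletal muscle genes (148 and 205 CPM, against 2.29 to 10.9 CPM in the other 20 libraries).

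The order of levels could be compared between genes only per length of transcript. Ptgds, the lipocalin-type prostaglandin D synthase of meninges and oligodendrocytes, stood 6.82 ± 0.53 (SD over 22 mice) log2 units above the next gene, Ptges2, in all 22 mice. Ptges2 (4.57 CPM per kb), Pla2g4a (4.16) and Ptgs1 (3.85) followed close together. Ptges2 was above Pla2g4a in 14 of 22 mice and Pla2g4a above Ptgs1 in 14 of 22, with mean differences of 0.13 ± 0.70 and 0.10 ± 0.49 log2 units per kb that lay within their spread. Ptger4 (1.69 CPM per kb) was below Ptgs1 in all 22 mice. Ptgis (1.25) and Ptges (0.912) came next, each below the gene before it in 19 and 17 of 22 mice. Ptgs2 (0.440) and Ptger3 (0.382) closed the list and changed places from mouse to mouse, Ptgs2 being the higher in 10 of 22.

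**Figure D1:**
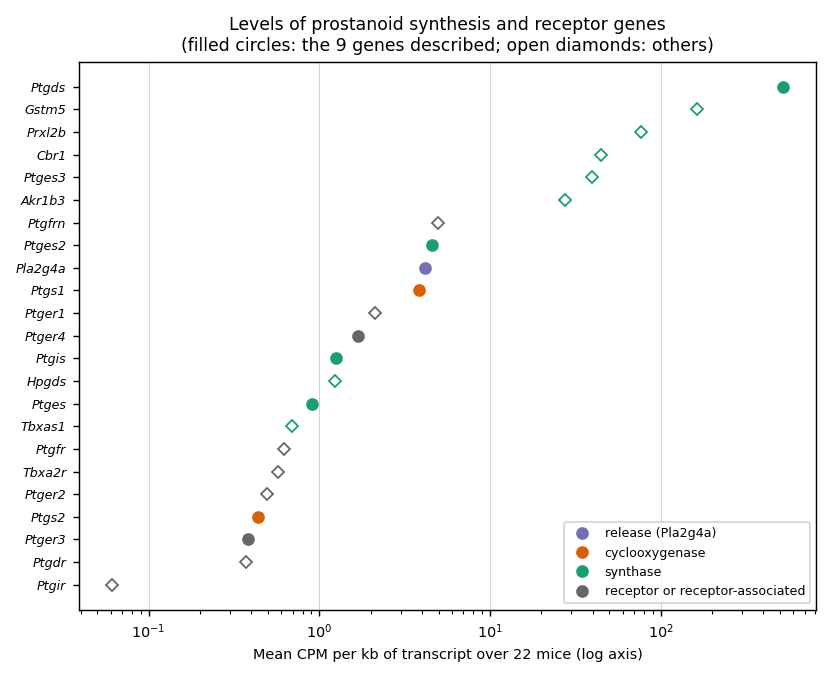
Mean level of each prostanoid synthesis and receptor gene over 22 mice, in CPM per kb of transcript on a log axis, with the 9 genes described as filled circles and the other synthases and receptors as open diamonds. Ptgds lies at 521 CPM per kb at the top, and Ptgs2 (0.440) and Ptger3 (0.382) near the bottom.

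Other synthases were plentiful. Gstm5, Prxl2b (prostamide/prostaglandin F synthase), Cbr1, Ptges3 (cytosolic prostaglandin E synthase, also known as the co-chaperone p23) and Akr1b3 had 163, 77.1, 44.9, 39.6 and 27.4 CPM per kb. Ptges3 has a processed pseudogene to which its reads may be assigned, so its level is uncertain. Hpgds (1.23), the prostaglandin D synthase of immune cells, and Tbxas1 (0.689), the thromboxane synthase, were low. Among receptors, Ptger1 for prostaglandin E2 had 2.12, Ptgfr 0.623, Tbxa2r 0.572, Ptger2 0.497, Ptgdr 0.373 and Ptgir, the prostacyclin receptor, 0.0611 CPM per kb. Ptgir had a median of 2 reads and did not pass the filter on low values. Ptgfrn, a negative regulator of the prostaglandin F2 alpha receptor, had 4.98 CPM per kb. All of the prostanoid receptors were thus below Ptgs1 in mean level per kb, whereas only Hpgds, Ptgis, Ptges and Tbxas1 among the 11 synthases measured were.

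Pla2g4a (chr1:149829618-149961290, minus strand, GRCm38) and Ptgs2 (chr1:150100031-150108227, plus strand) are neighbours, 139 kb apart. Ptgds, Ptges, Ptges2, Ptgs1 and Ptgis all lie on chromosome 2, at chr2:25466709-25470046, chr2:30889471-30929863, chr2:32395896-32405772, chr2:36230426-36252272 and chr2:167191805-167240604. Ptger3 is at chr3:157566892-157645888 and Ptger4 at chr15:5206661-5244187. Ptger4 shares 11676 bases of its span with Ttc33 on the opposite strand, and noncoding or pseudogene models lie over parts of Ptgis, Ptges and Ptgs1. The library kit keeps strand, but whether counting used it is not given in the sources used here, so reads of such partners may be mixed in these values.

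Promoter windows of RefSeq (GRCm38.p6, 250 bases before to 50 after the start) were found for 8 of the 9 genes. The windows of both cyclooxygenase genes are shown because these are the genes that glucocorticoids and inducers of inflammation are known to treat differently, Ptgs1 as the constitutive and Ptgs2 as the inducible form. The 250 bases before the start are printed, with matches to the GC box (GGGCGG) and to the short element of the glucocorticoid receptor (AGAACA, 1 arm of its site), on either strand, in capitals.
Ptgs1, chr2:36230176-36230425, plus strand: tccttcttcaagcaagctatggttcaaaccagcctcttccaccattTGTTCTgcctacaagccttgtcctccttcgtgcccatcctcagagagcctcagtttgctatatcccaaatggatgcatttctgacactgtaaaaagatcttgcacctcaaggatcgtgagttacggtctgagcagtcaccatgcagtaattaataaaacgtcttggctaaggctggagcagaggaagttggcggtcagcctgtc
Ptgs2, chr1:150099781-150100030, plus strand: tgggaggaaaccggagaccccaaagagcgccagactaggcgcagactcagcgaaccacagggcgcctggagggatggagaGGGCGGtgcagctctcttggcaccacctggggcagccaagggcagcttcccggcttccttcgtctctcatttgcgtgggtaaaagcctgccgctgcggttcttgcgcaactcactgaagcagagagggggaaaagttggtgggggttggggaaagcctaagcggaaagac

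The Ptgs1 window is 48.0% and the Ptgs2 window 61.6% G and C over these 250 bases. Ptgs1 held the glucocorticoid element, in reverse, at position -204 from the start and no GC box, and Ptgs2 held a GC box at position -170 and no such element. Such matches are common: of 32851 windows of 300 bases, 35.7% held the GC box and 19.0% the glucocorticoid element on either strand. In the 50 bases after the start, which are not printed, Ptgs2 held the core of a cyclic AMP response element (TGACG) and an E-box (CACGTG) that overlap, at positions 14 and 17, where 20.8% and 7.15% of windows held each. The NF-kappaB consensus was found in 0 of the 8 windows, and in 0.155% of all. The glucocorticoid element was found at 3 of the 8 genes (Pla2g4a at an inner start, Ptgs1 and Ptges) and the GC box at 4 (Ptgs2, Ptges, Ptger3 and Ptger4). These are matches of letters and no measure of binding.

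Pla2g4a, which frees arachidonic acid for the pathway, gave the largest ratio of difference to error among the 9 genes. The 5 late SAFit2 mice had 3.23, 3.75, 3.52, 4.25 and 4.13 log2 CPM, and the 6 late Vehicle mice had a lowest value of 2.78, a median of 3.27 and a highest of 3.67. The groups overlapped, with 3 SAFit2 mice above every Vehicle mouse and Late SAFit2 replicate 1 below the Vehicle median. The difference was 0.51 ± 0.19 (SE) with a 95% interval of 0.12 to 0.91 (limma p = 0.013, adjusted p = 0.069; exact permutation p = 0.056). After GC correction it was 0.34 (limma adjusted p = 0.31). It passed the limma threshold in the fits without Late SAFit2 replicate 1 (0.65, adjusted p = 0.025), without Late Vehicle replicate 2 (0.57, adjusted p = 0.043) and without Late Vehicle replicate 6 (0.59, adjusted p = 0.025). In those fits 3537, 3790 and 4971 of all 16765 genes passed, in that order, against 2021 over all mice.

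In the Early groups Pla2g4a pointed the other way. The 5 SAFit2 mice had 3.39, 3.12, 3.47, 3.39 and 3.49 log2 CPM, and the 6 Vehicle mice ran from 3.43 over a median of 3.76 to 4.10. All SAFit2 mice were below the Vehicle median, with an overlap at the low end. The difference was -0.38 ± 0.19 (limma p = 0.060, adjusted p = 1.00; exact permutation p = 0.024). The early minus late effect was -0.89 ± 0.27 on the log2 scale, with an interval of -1.45 to -0.33 (limma p = 0.0031, adjusted p = 0.12; permutation within timing over 213444 relabellings, p = 0.0035). After GC correction that difference was -0.69 (limma adjusted p = 0.31). Without Late Vehicle replicate 6 it was -0.97 with an adjusted p of 0.026 by limma. In that fit 2513 of all 16765 genes had an adjusted p under 0.05 for this effect, against 0 over all mice.

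Ptgs1, the constitutive cyclooxygenase, passed the threshold in no SAFit2 comparison over all mice. Its values ran from 3.37 to 3.90 log2 CPM in late Vehicle and were 3.68, 2.80, 3.27, 3.22 and 4.10 in the 5 late SAFit2 mice, which thus lay on both sides of the Vehicle range. The late difference was -0.21 ± 0.20 (limma adjusted p = 0.45) and the early one -0.16 ± 0.20 (adjusted p = 1.00). The mean effect over both timings was -0.19 ± 0.14 by limma (unadjusted p = 0.18). Without Late SAFit2 replicate 5, the mouse at 4.10, the limma estimate was -0.27 with an unadjusted p of 0.040, which is past the threshold used for the mean effect, and an adjusted p of 0.40. In that fit 2017 of all 16765 genes were past that threshold, against 2215 over all mice. After GC correction the late, early and mean values over all mice were -0.08, -0.15 and -0.11.

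Ptgs2 rested on few reads, from 4 to 103 per library with a median of 28.5. The 5 late SAFit2 mice had 0.41, -1.29, 1.18, 0.02 and 2.30 log2 CPM, and the 6 late Vehicle mice ran from -0.53 over a median of 0.42 to 1.89. The SAFit2 mice spanned the whole Vehicle range and beyond at both ends. The lowest of all 22 values (4 reads) was that of Late SAFit2 replicate 2, the library with the lowest sums of nerve and of meningeal markers, and the highest late value was that of Late SAFit2 replicate 5, the library with the highest sums of those markers. The part of nerve and meninges in the level of Ptgs2 was not tested. The late difference was 0.05 ± 0.49, with a 95% interval of -0.96 to 1.06 (limma adjusted p = 0.95), and was 0.07 without both libraries, an alternative chosen after seeing the data. Its sign turned with GC correction (-0.28) and in 4 of the 22 fits that left out 1 library (range -0.39 to 0.51).

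In the Early groups Ptgs2 was at 0.97, 0.73, 0.98, 0.28 and 0.96 log2 CPM in SAFit2 mice and ran from 0.22 over a median of 1.51 to 2.40 in Vehicle mice. The SAFit2 values sat within the Vehicle range, in its lower part. The difference of -0.56 ± 0.49 was not past the threshold (limma p = 0.27, adjusted p = 1.00; exact permutation p = 0.19), and the interval from -1.57 to 0.45 holds changes of more than 1 log2 unit downward. The 2 Early Vehicle mice with the most Ptgs2, replicates 1 (1.82) and 2 (2.40), also had the highest sums of meningeal markers of their group (735 and 824 CPM). Other mice did not follow this order: Early Vehicle replicate 6 had 1.75 with 397 CPM, Late Vehicle replicate 6 had 1.89 with 308 CPM, and Late SAFit2 replicate 4 had 0.02 with 593 CPM.

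The row with the symbol COX2 in the table is another gene, the mitochondrially encoded subunit 2 of cytochrome c oxidase (chrM:7013-7696, plus strand), which belongs to the respiratory chain and makes no prostaglandin. Its values were near 13 log2 CPM where those of Ptgs2 were near 1. In late SAFit2 mice it was at 13.8, 13.8, 13.6, 13.7 and 14.0, and in late Vehicle mice it ran from 12.6 over a median of 12.9 to 13.7. Late Vehicle replicate 6 was the Vehicle mouse that reached the SAFit2 range. COX2 was 0.77 ± 0.25 higher (limma adjusted p = 0.045), and it was past the threshold in 9 of the 22 fits that left out 1 library (adjusted p from 0.0081 to 0.12). After GC correction the difference was 0.23 (limma adjusted p = 0.51). Ptgs2 and the COX2 row are thus different measurements, far apart in level, and the late difference passed the test in the mitochondrial row and not in Ptgs2.

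**Figure D2:**
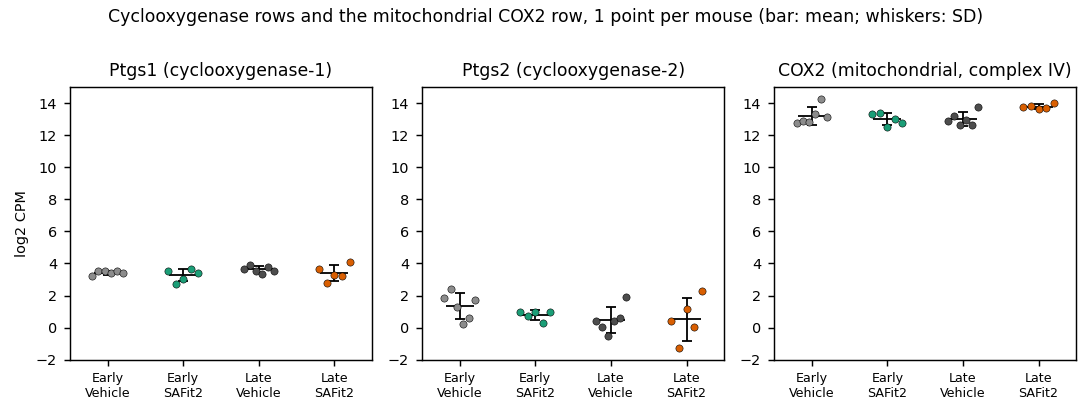
Values of Ptgs1, Ptgs2 and the mitochondrial COX2 row in log2 CPM, with 1 point per mouse, bars for group means and whiskers for the SD. The COX2 row lies near 13 in every group and is higher in late SAFit2 mice, while Ptgs2 lies near 1 and spreads from -1.29 to 2.40.

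Ptges, the inducible microsomal prostaglandin E synthase, was at 0.78, 1.84, 1.57, 1.81 and 1.93 log2 CPM in late SAFit2 mice and ran from 1.37 over a median of 1.80 to 2.54 in late Vehicle mice. Late SAFit2 replicate 1 lay lowest of all 22, and the other 4 SAFit2 mice lay inside the wider Vehicle range. The late difference was -0.23 ± 0.25 (limma adjusted p = 0.53) and became 0.01 after GC correction. The early difference was 0.00 ± 0.25, with an interval of -0.52 to 0.51.

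Ptges2, a microsomal synthase that is not tied to inflammation, had the next largest ratio of late difference to error after Pla2g4a, with the opposite sign, and did not pass the threshold. The 5 late SAFit2 mice had 4.88, 4.41, 4.21, 3.78 and 3.81 log2 CPM, and the 6 late Vehicle mice ran from 4.07 over a median of 4.81 to 5.02. Late SAFit2 replicate 1 was again the mouse that sat with Vehicle, and Late Vehicle replicate 6 the one that sat with SAFit2. The difference was -0.49 ± 0.19, with an interval of -0.88 to -0.10 (limma p = 0.015, adjusted p = 0.074; exact permutation p = 0.082), and it was -0.16 after GC correction (limma adjusted p = 0.60). It passed the threshold without Late SAFit2 replicate 1 (-0.66, limma adjusted p = 0.020) and without Late Vehicle replicate 6 (-0.62, limma adjusted p = 0.013). In those fits 3537 and 4971 of all 16765 genes passed, against 2021 over all mice.

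Early SAFit2 mice had 4.33, 4.93, 4.76, 4.41 and 4.37 log2 CPM of Ptges2, against 4.03 to 4.62 in early Vehicle. Most of the values overlapped, and the difference was 0.18 ± 0.19 (limma adjusted p = 1.00). The early minus late effect was 0.68 ± 0.27 (limma p = 0.018, adjusted p = 0.14; permutation within timing, p = 0.030), and 0.28 after GC correction (limma adjusted p = 0.54). Without Late Vehicle replicate 6 it was 0.81, with a limma adjusted p of 0.034, in the fit where 2513 of all 16765 genes passed for this effect.

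Ptgds was measured with the most reads, 3479 to 16307 per library. Late SAFit2 mice had 8.78, 8.72, 9.20, 8.44 and 9.42 log2 CPM and late Vehicle mice ran from 8.32 over a median of 8.92 to 9.04. Of the SAFit2 mice 2 lay above every Vehicle mouse and the other 3 lay within the Vehicle range, and the difference was 0.10 ± 0.21 (limma adjusted p = 0.76). GC correction moved it to 0.45 (limma adjusted p = 0.27; exact permutation p = 0.0043), and without Late SAFit2 replicates 2 and 5 it was 0.00. Early SAFit2 mice had 8.603, 8.46, 8.46, 9.07 and 8.25, against 8.17 to 9.53 with a median of 9.20 in early Vehicle. All of the SAFit2 mice lay below the Vehicle median, although the lowest mouse was Early Vehicle replicate 5. The early difference was -0.41 ± 0.21 (limma p = 0.060, adjusted p = 1.00; exact permutation p = 0.15).

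Ptgis, the prostacyclin synthase, had 25 to 81 reads per library. It was at 1.18, 1.62, 1.28, 1.54 and 2.60 log2 CPM in late SAFit2 mice and from 0.84 to 1.98 in late Vehicle. The mouse at 2.60 was again Late SAFit2 replicate 5, and the others were within the Vehicle range. The late difference was 0.26 ± 0.30 (limma adjusted p = 0.55). It was 0.66 after GC correction (limma adjusted p = 0.33) and -0.05 without Late SAFit2 replicates 2 and 5. The early difference was -0.34 ± 0.30 (limma adjusted p = 1.00).

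Ptger3 was the scarcest of the 9, with 1 to 52 reads per library. In late SAFit2 mice it was at -0.17, 0.67, 0.44, 0.15 and -2.15 log2 CPM, and in late Vehicle mice it ran from -0.32 over a median of 0.15 to 1.10. The value of -2.15 rests on 1 read in Late SAFit2 replicate 5, and the other 4 mice overlapped with Vehicle throughout. The difference was -0.56 ± 0.46, with an interval of -1.50 to 0.39 (limma adjusted p = 0.40), and was -0.07 without that library. In the Early groups the difference was 0.00 ± 0.46, and a change of 0.94 log2 units in either direction lies within the interval.

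Ptger4, the EP4 receptor, had the tightest late values of the 9. Late SAFit2 mice had 2.59, 2.66, 2.88, 2.85 and 2.75 log2 CPM and late Vehicle mice 2.45 to 2.67 with a median of 2.59. Of the SAFit2 mice, 3 were above every Vehicle mouse and the other 2 were within the Vehicle range. The difference of 0.17 had an exact permutation p of 0.022, or 0.18 adjusted over all genes, and a limma p of 0.39, or 0.56 adjusted. The Early values ranged more widely, from 1.82 to 3.08. After GC correction the difference was -0.02 (exact permutation p = 0.73). The early difference was -0.12 ± 0.20 (limma adjusted p = 1.00).

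**Figure D3:**
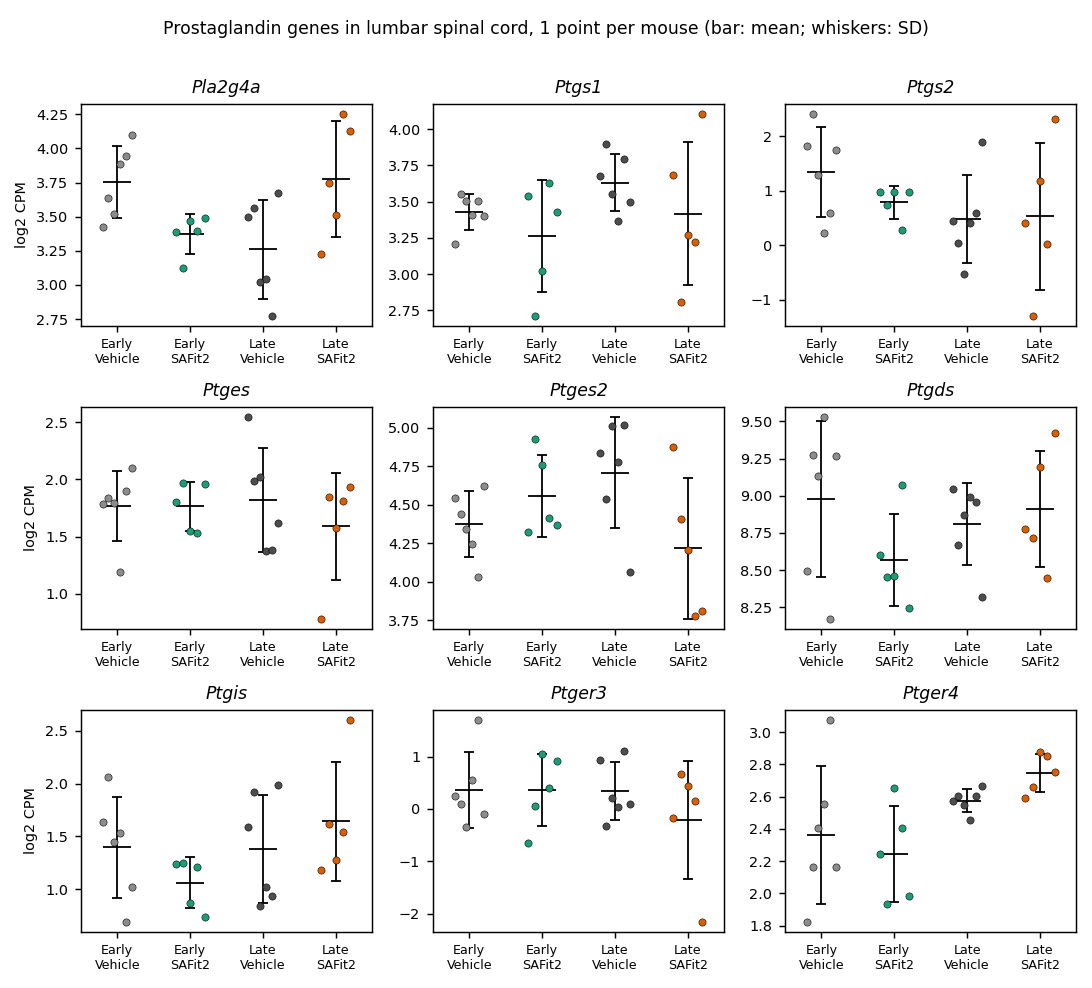
Values of the 9 genes in log2 CPM in 5 or 6 mice per group, with 1 point per mouse, bars for group means and whiskers for the SD. Groups overlap in all panels, and Ptgs2 and Ptger3 spread most, from -1.29 to 2.40 and from -2.15 to 1.70.

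Counted together, 0 of the 9 genes passed the late threshold, which 12.1% of all genes tested passed (5.33% as higher and 6.72% as lower), and 2 of 9 (Pla2g4a and Ptges2) had an unadjusted limma p under 0.05, against 34.5% of all genes. By exact permutation 1 of 9 (Ptger4) was under 0.05, against 26.4%. In the early comparison 0 of 9 passed, as did 0% of all genes. There 0 of 9 had an unadjusted limma p under 0.05, against 2.48% of all, and 1 of 9 (Pla2g4a) had such a p by exact permutation, against 3.81%. The mean effect over both timings had 0 of 9 at an unadjusted limma p under 0.05, against 13.2% of all genes (6.03% higher and 7.18% lower). The early minus late effect had 0 of 9 at an adjusted p under 0.05, against 0% of all, and 2 of 9 (Pla2g4a and Ptges2) at an unadjusted one, against 24.9%. After GC correction Pla2g4a, Ptgds and Ptgis had an unadjusted limma p under 0.05 for this effect and Ptges2 did not, with 2002 of 16213 genes. limma voom on the worked-back reads also called 0 of 9 in each of these comparisons. Of all 16765 genes it called 876 late, 0 early, 2166 in the mean effect and 0 in the early minus late effect. No gene of the 9 had groups apart from each other, which 1.71% of genes had in the late and 0.352% in the early comparison. The median log2 fold change over the 9 genes was 0.05 late and -0.16 early, against -0.05 and 0.01 over all genes, and 8 of 9 were negative early and 4 of 9 late. Among the early negatives, Ptges (-0.0040) and Ptger3 (-0.00019) were near 0, and their sign turned in some alternatives. Lists of cell markers went both ways early. Negative were 11 of 12 leptomeningeal markers (median -0.42) and 7 of 8 of microglia and macrophages (median -0.19). So were 5 of 6 ependymal ones (median -1.31). These lists had 0 past the limma threshold each and 2, 0 and 3 at an unadjusted limma p under 0.05, in that order. Oligodendrocytes and astrocytes had 6 of 8 negative each, and choroid plexus 2 of 3. Positive were 6 of 8 mural, 5 of 8 spinal neuron and 5 of 6 blood markers. So were 5 of 6 of skeletal muscle and 3 of 4 of nerve and ganglion, and endothelial cells had 4 of 8 each way. The part of these cells in the values of the 9 genes was not tested.

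**Figure D4:**
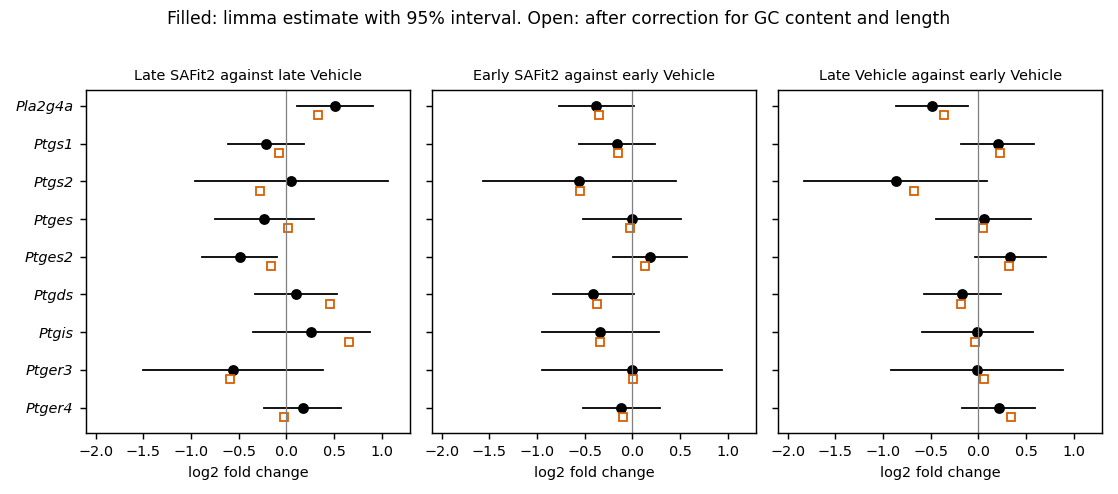
Log2 fold changes of the 9 genes in the late, early and Vehicle comparisons, with filled circles for limma estimates, lines for their 95% intervals and open squares for the estimates after GC and length correction. Intervals leave out 0 for Pla2g4a and Ptges2 in the late panel (0.51 and -0.49) and for Pla2g4a in the Vehicle panel (-0.49).

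The Vehicle groups alone give the difference between timings, or batches, without drug. None of the 9 passed the threshold there, which 9.11% of all genes passed (3.29% as higher and 5.82% as lower), and 1 of 9 had an unadjusted limma p under 0.05, against 24.3% of all. limma voom called 0 of 9, with 2 at an unadjusted p under 0.05. Of all 16765 genes it called 1838, with 4383 at an unadjusted p under 0.05. Pla2g4a was 0.49 ± 0.18 lower in late Vehicle (limma p = 0.013, adjusted p = 0.092; exact permutation p = 0.035). By exact permutation 22.6% of all genes had a p under 0.05. Without Late Vehicle replicate 6 the Pla2g4a difference was -0.57 (limma adjusted p = 0.040), in a fit where 2482 of all 16765 genes passed, against 1527 over all mice. Ptgs2 was at a mean of 1.34 ± 0.82 (SD, n = 6) log2 CPM early and 0.47 ± 0.80 (SD, n = 6) late, a difference of -0.87 ± 0.47 (limma adjusted p = 0.26). All 12 leptomeningeal markers also had lower means in late Vehicle (1 of 12 past the threshold). Their sums were 207 to 341 CPM late against 308 to 824 CPM early. Other lists shifted too: all 4 nerve and ganglion markers were lower. All 8 of astrocytes (3 past the threshold), all 6 ependymal and all 6 blood markers were higher. The part of any of these cells in the Ptgs2 difference was not tested. Ptges2 was 0.34 ± 0.18 higher in late Vehicle (limma adjusted p = 0.26). After GC correction the differences of Pla2g4a, Ptgs2 and Ptges2 were -0.36, -0.67 and 0.32 (limma adjusted p = 0.10, 0.32 and 0.078). Groups overlapped for all 9 genes, while 4.92% of all genes had Vehicle groups apart.

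Around the 9 genes, 82 others were listed for the release of arachidonic acid, the other synthases and receptors, transport and breakdown, leukotrienes, glucocorticoid control, inducers, and signalling of prostaglandin E2. Of these 69 were tested, and 5 (7.25%) passed the late threshold, with 12.1% of all genes. Faah (-0.47 ± 0.13, limma adjusted p = 0.036), which breaks down anandamide to arachidonic acid, and Pla2g15 (-0.68 ± 0.23, adjusted p = 0.0498), a lysosomal phospholipase, fell, as did Rela (-0.54 ± 0.18, adjusted p = 0.049), a subunit of NF-kappaB. Gnai1 (0.40 ± 0.12, adjusted p = 0.038), an inhibitory G protein of the kind EP3 couples to, and the cyclic AMP response factor Creb1 (0.49 ± 0.14, adjusted p = 0.036) rose. All 5 lost the call after GC correction, where their differences were -0.25, -0.35, 0.02, 0.16 and 0.17 in the order given. Faah, Gnai1 and Creb1 were past the threshold in 15, Rela in 8 and Pla2g15 in 7 of the 22 fits that left out 1 library.

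By list, the late comparison had 2 of 14 release genes lower, 1 of 9 inducers lower and 2 of 10 signalling genes higher. It had 0 of 7 other synthases, 0 of 6 other receptors, 0 of 8 transport and breakdown genes, 0 of 8 leukotriene genes and 0 of 8 glucocorticoid genes. In those 5 lists 9 genes had an unadjusted limma p under 0.05, and limma voom also called 0. Fkbp5 is in the glucocorticoid list and is not among the 69. Over the 69, limma voom called 3, against 876 of all 16765 genes. The median of the 69 was -0.07 on the log2 scale, against -0.05 over all genes. Il1b, Il6, Tnf and Ptgdr2 were not analysed here. In the early comparison 0 of 69 passed by limma, as by limma voom, and 2 had an unadjusted limma p under 0.05.

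In the mean effect over both timings, counted at an unadjusted limma p under 0.05, 10 of 69 (14.5%) passed, with 13.2% of all genes. Higher were Plaa (0.21), Ptgfr (0.36), Ptgr1 (0.48), which inactivates prostaglandins and leukotriene B4, and Gnai1 (0.19). Lower were Mgll (-0.21), which frees arachidonic acid from 2-arachidonoylglycerol, Tbxas1 (-0.86), Akr1b3 (-0.20), Cebpd (-0.59), Gnai2 (-0.20) and Arrb2 (-0.25). Fkbp5, which encodes the target of the drug and is itself induced by glucocorticoids, was 0.23 ± 0.11 higher by limma (unadjusted p = 0.038). None of these 11 had an adjusted p under 0.34. After GC correction Plaa was at 0.0078, Mgll at -0.05, Gnai2 at -0.0059, Arrb2 at -0.07, Gnai1 at 0.09 and Ptgfr at 0.21, while Ptgr1 (0.50), Fkbp5 (0.31), Tbxas1 (-0.86), Akr1b3 (-0.19) and Cebpd (-0.51) moved by less than 0.1.

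Between the Vehicle groups 7 of 69 (10.1%) passed, with 9.11% of all genes. Pla2g4b (-2.16 ± 0.33, limma adjusted p = 9.71e-05) and Pla2g4c (-2.27 ± 0.54, adjusted p = 0.0080), both relatives of Pla2g4a, were lower in late Vehicle, as were the interleukin-1 receptor Il1r1 (-0.87) and the adenylyl cyclase Adcy1 (-0.49). Abhd12 (0.48), Hsd11b1 (0.49), which regenerates active glucocorticoid, and Gnai2 (0.40) were higher. Pla2g4b shares its span with the read-through gene Gm28042 on its own strand and with Sptbn5 on the other, and Pla2g4c had a median of 1.5 reads, so both are uncertain. Pla2g4b, Pla2g4c, Abhd12, Il1r1 and Adcy1 kept the call in all 22 fits that left out 1 library, Gnai2 in 13 and Hsd11b1 in 8.

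**Figure D5:**
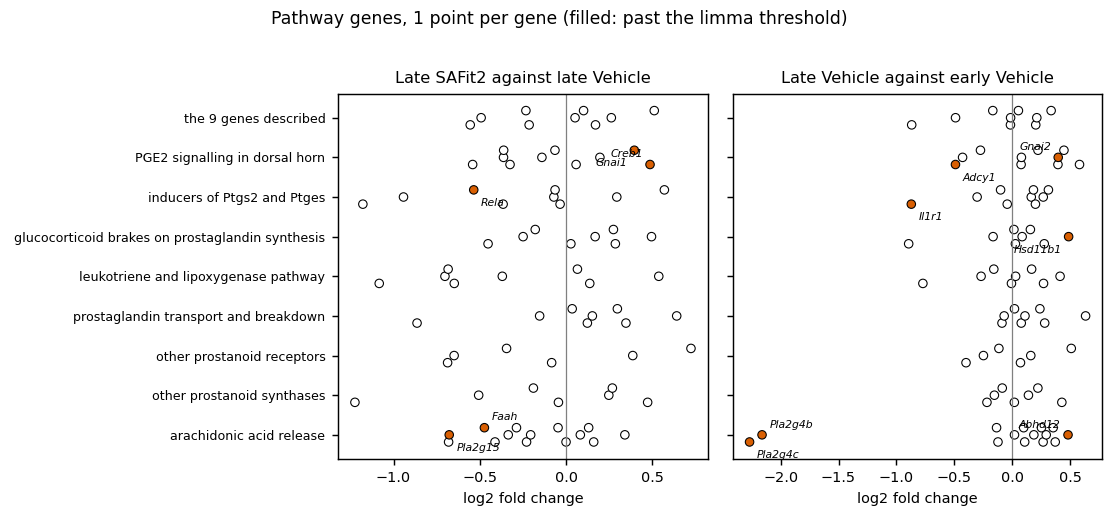
Log2 fold changes of the pathway genes by list, with 1 point per gene, for late SAFit2 against late Vehicle and for late against early Vehicle; filled points passed the limma threshold. In the late panel 5 genes are filled and none of the 9 genes described is, and in the Vehicle panel Pla2g4b and Pla2g4c lie near -2.2.

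How the 9 genes varied from mouse to mouse, once each group's mean was taken off, is given as a description over the 22 mice, with no p, since the closest genes were picked from all those tested. Ptges2 had the closest companions, among them Stmn3 and Tst, each with a Pearson r of 0.95 (Spearman rho 0.93 and 0.94). Pla2g4a was nearest to Tafa2 (r = 0.85), Nudcd1 (0.84) and Klhl7 (0.84). Ptgds was nearest to Ccn2 (0.83), Tsc22d1 (0.77) and Aar2 (0.74), and Ptgis to Itgb1 (0.79), Arhgap29 (0.78) and Itm2a (0.76). Libraries share depth and GC trend, which enter all of these values.

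Ptgs2 was nearest to Pf4 (r = 0.82, rho = 0.68), Cfhr2 (0.81, 0.74) and Lyz2 (0.80, 0.63). Pf4 and Lyz2 are genes of platelets and of macrophages and other myeloid cells. Without the 2 mice farthest from the median in Ptgs2, these r came to 0.66, 0.66 and 0.60. Ptgs1 was nearest to Cyp26b1 (0.82), H2-M3 (0.78) and Pyroxd1 (0.76), which came to 0.64, 0.59 and 0.56 without 2 mice. Ptges was nearest to Rasl10a (0.71), Cklf (0.70) and Gngt2 (0.70), Ptger3 to Hsf2bp (0.79), Marchf11 (0.77) and Inava (0.77), and Ptger4 to Arfgef3 (0.81), Ankrd17 (0.78) and Tfdp2 (0.71). Without 2 mice those of Ptger4 came to 0.67, 0.52 and 0.52, and that of Ptger3 with Hsf2bp to 0.60.

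Among themselves the 9 genes did not move as 1 group. Over the 36 pairs, r ran from -0.73 (Pla2g4a with Ptges2) to 0.49 (Pla2g4a with Ptges), the latter at 0.24 without 2 mice and 0.65 after GC correction. The inverse relation of Pla2g4a and Ptges2 had a rho of -0.69, and its r was -0.63 without 2 mice and -0.44 after GC correction. Ptgis with Ptger3 had an r of -0.64, and -0.38 without 2 mice. Ptgs1 with Ptgs2 had an r of 0.39, and -0.13 without 2 mice, so that it rests on those mice.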

How the data were processed

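RNA was sequenced from lumbar spinal cord of 22 mice. Per the methods and the labels, the authors trimmed paired reads (Trimmomatic), aligned them to mm10 (HISAT2), counted genes with featureCounts and scaled library sizes by the TMM method; their methods speak of TPM, but the table that was deposited holds log2 CPM, in which 0 reads give -3.15. Reads worked back from them were whole in 100.0% of cases (tolerance 0.02 reads) and gave depth and counting error.

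Genes at -1 log2 CPM or more in 5 libraries were tested in R 4.3.3 with limma 3.58.1 (4 group means, variance trend on expression, Benjamini-Hochberg over all 16765 genes). Genes were called at 1.2-fold with an adjusted p under 0.05 (no fold limit for the early minus late effect), and at an unadjusted p under 0.05 for the mean effect. Exact permutations were two-sided, over 462 relabellings for 5 against 6 mice (924 for the Vehicle groups), and cannot give a p under 0.0022. Fold changes are differences of log2 CPM, and errors are SE unless SD is named. Levels per kb use the longest coding transcript of GENCODE M21 (GRCm38), and GC correction takes a smooth trend on GC content and length from each library (16213 genes). The fits were tested on simulated data. Python 3.11.15 was used for the rest.

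The members and lists were chosen with earlier results of these data known. Named are the 9 genes, the pathway genes past a threshold, the other synthases and receptors, COX2, Fkbp5, the 3 genes most like each member and defining markers. Of these, 1 companion of Ptges2 and 1 marker are not reported here. Alternatives were other filters, pseudocounts, variance models, library weights, scalings, GC correction, the replicate number as a block, voom and leaving out libraries.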

Additional observations from a re-analysis of the deposited data

Results flagged for a closer look

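In 40 groups of 5 or 6 mice (9 genes and the COX2 row, 4 groups each), 3 held a mouse far from the others by Dixon's test, and chance marks about 1 group in 20. Pla2g4a was at 3.12 log2 CPM in Early SAFit2 replicate 2, where the other 4 mice lay between 3.39 and 3.49. Ptges was at 1.19 in Early Vehicle replicate 4, where the other 5 lay between 1.78 and 2.10. The mitochondrial COX2 row was at 14.2 in Early Vehicle replicate 5, where the other 5 lay between 12.8 and 13.3, and that library also had 18.3% of its reads on mitochondrial genes.

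The early minus late effect of SAFit2 had a p under 0.05 for 2 of the 9 genes by permutation of treatment within timing, although not at an adjusted p under 0.05 by limma. By limma, 24.9% of all genes had an unadjusted p under 0.05 for it, so 2 of 9 is no more than the background before GC correction. After GC correction Pla2g4a, Ptgds and Ptgis had such a p by limma, with 2002 of 16213 genes. The share of all genes by permutation was not computed for this effect. The early minus late effect of Pla2g4a was -0.89 (permutation p = 0.0035), and that of Ptges2 was 0.68 (permutation p = 0.030). After GC correction the permutation p was 0.0060 for Pla2g4a, 0.15 for Ptges2, 0.023 for Ptgds and 0.049 for Ptgis. With 9 genes tested, none of these p is adjusted for their number.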

How the results depend on the processing

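Of the 9 genes, none passed a threshold in the fits reported, and the alternatives that called any were few. Library quality weights called 2 late (Pla2g4a and Ptges2), 1 in the mean effect (Ptges2) and 2 in the early minus late effect (Pla2g4a and Ptges2). They called 3 between Vehicle groups (Pla2g4a, Ptges2 and Ptgs2, the last at -1.49). Of all genes they called 38.1%, 38.2%, 30.3% and 30.2% in these comparisons, in that order. Leaving out 1 library at a time gave 0 to 2 calls late, 0 in every early fit, 0 to 1 in the mean effect, 0 to 2 in the early minus late effect and 0 to 1 between Vehicle groups. Over all genes these fits called 1 to 4971 late, 0 early and 1313 to 3780 in the mean effect. They called 0 to 2513 in the early minus late effect and 944 to 2482 between Vehicle groups. The fit without Late Vehicle replicate 6 was the only one of them to call any gene in the early minus late effect. Library sizes without Bc1 and mitochondrial genes, chosen after seeing the data, called 1 between Vehicle groups (10.3% of all genes). By exact permutation, median centring gave 2 of 9 late and 2 between Vehicle groups (26.6% and 25.2% of all genes), and GC correction 2 between Vehicle groups (32% of all genes). The causes were not tested. Over all genes, the 2021 late calls became 0 after GC correction, 0 when only the mice compared were fitted and 6381 with library weights, and ran from 1 to 4971 when 1 library was left out.

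The replicate numbers did not pair the mice: over 31 same-numbered pairs the correlation of deviations ran from -0.236 to 0.317, and 7 were above 0.1. With the number as a block, 1 gene was called late (Pla2g4a, 0.59, with 18.8% of all genes) and 0 in the other comparisons.

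Signs turned mostly where differences were near 0. GC correction gave -0.0075 for Pla2g4a in the mean effect, and late values of -0.28 for Ptgs2, 0.012 for Ptges and -0.022 for Ptger4 (with the block added, -0.13, 0.042 and -0.059). The early value of Ptges was 0.039 with quantile normalization, 0.0093 with the block and 0.0065 with block and GC correction. That of Ptger3 was 0.46 with library weights, 0.0997 with quantile normalization, 0.010 with GC correction and 0.14 with voom. Library weights gave 0.082 for early Ptger4, and quantile normalization 0.059 for early COX2. Without Late SAFit2 replicates 2 and 5, late Ptgds was -0.0035 and late Ptgis -0.047. Leaving out 1 library, ranges crossed 0 for late Ptgs2 (-0.39 to 0.51), early Ptges (-0.12 to 0.063), late Ptgds (-0.026 to 0.22), early Ptger3 (-0.17 to 0.27), early Ptger4 (-0.23 to 0.023) and early COX2 (-0.30 to 0.011). As a mean of log2 values instead of a sum, marker lists turned sign for oligodendrocytes (0.046), mural cells (0.25) and spinal neurons (0.24) between Vehicle groups, endothelial cells (-0.024), spinal neurons (-0.12) and blood (0.38) late, and mural cells early (0.081).

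Depth limits Ptgs2 and Ptger3 most: their counting error alone had a median SD of 0.270 and 0.336 log2 units per library, against 0.89 and 0.79 observed within groups. With 5 or 6 mice a group and 1 library per mouse, a change of the size of the intervals given could be present and not be called.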
